A study of Mus musculus with 8 samples.

Results

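Imprinted genes that act on growth or on the placenta (Igf2, Dlk1, Grb10, Cdkn1c, Phlda2, Ascl2, Plagl1, Peg3, Peg10 and Mest) were followed by RNA-seq in mouse embryonic stem cells (mESCs) that were sorted by a KLF3 reporter or made to overexpress KLF3. They were matched by symbol, and all 10 were listed in both deposited tables, which share 12666 protein-coding genes of 14709 in all. The series holds 8 samples, 2 in each of 4 conditions. All cells were mESCs of a C57BL/6(F) x 129/sv(M) cross, grown on gelatin in serum with leukaemia inhibitory factor (LIF). In the first experiment, cells negative or positive for KLF3-GFP were collected at 500 cells per sample and sequenced after Smart-seq2, a full-length cDNA protocol for very small inputs. Both populations carried the same reporter, in which a CAGGS promoter drives the N-terminal part of KLF3, without its DNA-binding domain, fused to GFP, next to DsRed as a marker of the construct. In the second experiment, codon-optimized Klf3 or GFP had been placed behind a doxycycline-inducible promoter at Col1a1 in the R26 mESC line, whose Rosa26 locus makes the doxycycline-dependent activator. Clones of this line were picked after selection on feeder cells, and RNA of KLF3-overexpressing and GFP-overexpressing cells was sequenced at 72 hours as poly(A) libraries. How many clones stand behind each condition is not given in the sources used here.

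An imprinted gene is transcribed mainly from the copy inherited from one parent, because DNA methylation set in the egg or sperm marks the parental copies. Many genes that mammals control in this way set the growth of the fetus and placenta, with paternally expressed genes often favouring growth and maternally expressed genes often restraining it. Of the 10 genes, Igf2, Dlk1, Plagl1, Peg3, Peg10 and Mest are known to be expressed from the paternal copy, whereas Cdkn1c, Phlda2, Ascl2 and, outside the brain, Grb10 are known to be expressed from the maternal copy. Cultured mESCs are known for unstable imprints, and FPKM do not separate the parental copies, so nothing below says which copy was transcribed.

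Each deposited column holds the authors' mean of 2 replicates as FPKM (fragments normalized to transcript length and library size), rounded to 2 decimals and never below 0.1. The spread between replicates and the number of reads behind a value are therefore unknown, so no error, no interval and no test stands beside any difference here. Differences are those of log2(FPKM + 1) between the columns of a table, which understates the change of low genes. A gene was called higher when its difference exceeded 1, a 2-fold change on this scale, and lower when it was under -1, provided that its mean over both columns was at least 1 FPKM. A call is thus a size and not a significance. Because the library protocols differed, levels were not compared between the experiments. In bulk RNA, fewer cells of a type and less RNA per cell cannot be told apart.

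Igf2, Ascl2, Cdkn1c and Phlda2 lie together at the distal end of chromosome 7 in mm10, all on the minus strand, within 852 kb. Igf2 (ENSMUSG00000048583) occupies chr7:142650766-142666816, Ascl2 (ENSMUSG00000009248) chr7:142966822-142969264, Cdkn1c (ENSMUSG00000037664) chr7:143458350-143461050 and Phlda2 (ENSMUSG00000010760) chr7:143501545-143502541. In this domain Igf2 is the paternally expressed member, and the other three are maternally expressed. Peg3 (ENSMUSG00000002265) lies far from them on the same chromosome at chr7:6703892-6730421. Peg10 (ENSMUSG00000092035, chr6:4747306-4760517) and Mest (ENSMUSG00000051855, chr6:30723547-30748465) share chromosome 6 but not a domain. Plagl1 (ENSMUSG00000019817, chr10:13060504-13131694), Grb10 (ENSMUSG00000020176, chr11:11930508-12038683) and Dlk1 (ENSMUSG00000040856, chr12:109452823-109463336) are alone on their chromosomes. In the GENCODE M21 annotation, Igf2 overlaps Gm49394 on the same strand and Mest overlaps Copg2 on the opposite strand. How reads over such overlaps were assigned is not given in the sources used here, so the values of Igf2 and Mest carry this uncertainty.

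To show the sequences at their starts, promoter windows of 300 bases, from 250 before to 50 after a transcription start, were taken from RefSeq (GRCm38.p6, the assembly of mm10). The table held 14 windows for 8 of the 10 genes, all but Peg10 and Cdkn1c. A pair of the 3 Mest windows lie almost on top of each other. The windows below belong to Igf2, which had the largest difference on overexpression, and to Peg3, Phlda2 and Ascl2, which were called in sorted cells in opposite directions. They are written 5′ to 3′ on the strand of the gene, with every CACCC box, the core letters bound by Kruppel-like factors, or its reverse complement GGGTG in capitals. Of the 4 Igf2 windows, the one richest in CpG is shown.
Igf2, chr7:142658755-142659054, minus strand: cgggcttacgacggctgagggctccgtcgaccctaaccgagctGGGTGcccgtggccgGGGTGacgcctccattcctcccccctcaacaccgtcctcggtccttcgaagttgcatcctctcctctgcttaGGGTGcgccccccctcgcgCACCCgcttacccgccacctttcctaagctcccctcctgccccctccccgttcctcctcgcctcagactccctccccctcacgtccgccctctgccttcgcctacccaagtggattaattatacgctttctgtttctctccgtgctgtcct
Peg3, chr7:6730370-6730669, minus strand: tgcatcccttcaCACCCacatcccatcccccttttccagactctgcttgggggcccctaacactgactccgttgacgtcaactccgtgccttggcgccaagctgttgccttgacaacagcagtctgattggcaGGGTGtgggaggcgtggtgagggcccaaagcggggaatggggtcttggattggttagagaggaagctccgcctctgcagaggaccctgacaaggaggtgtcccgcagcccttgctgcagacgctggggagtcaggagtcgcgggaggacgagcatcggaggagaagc
Phlda2, chr7:143502475-143502774, minus strand: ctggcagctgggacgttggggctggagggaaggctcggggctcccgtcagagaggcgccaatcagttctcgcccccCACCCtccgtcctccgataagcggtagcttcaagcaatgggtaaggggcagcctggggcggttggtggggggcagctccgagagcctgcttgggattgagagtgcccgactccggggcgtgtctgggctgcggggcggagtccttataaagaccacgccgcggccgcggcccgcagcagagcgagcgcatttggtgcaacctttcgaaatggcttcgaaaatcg
Ascl2, chr7:142969215-142969514, minus strand: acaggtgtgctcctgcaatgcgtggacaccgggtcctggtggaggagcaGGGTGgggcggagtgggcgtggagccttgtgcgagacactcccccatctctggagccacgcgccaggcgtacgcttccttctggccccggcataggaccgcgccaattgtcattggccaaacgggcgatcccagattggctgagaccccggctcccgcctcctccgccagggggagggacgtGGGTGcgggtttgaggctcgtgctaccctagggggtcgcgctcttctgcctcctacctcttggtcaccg

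CACCC on either strand occurred in 9 of the 14 member windows, and in 57.5% of all 32851 windows of this length. The printed windows held it 4 times (Igf2), 2 times (Peg3), 1 time (Phlda2) and 2 times (Ascl2), but these windows were picked by the differences of their genes, and none of the 3 windows of Mest, which was also called lower in sorted cells, held it. The longer CCACACCC, which contains CACCC, occurred in 1 member window, that of Peg3, and in 3.56% of all windows. TGCCGC, the hexamer recognised by the imprint-protecting zinc finger protein ZFP57, occurred in 5 member windows and in 11.6% of all windows, and in none of the printed ones. Those 5 include the pair of Mest windows that lie almost on top of each other. TGCCGC itself holds a CpG, in which the member windows were richer by their median. The member windows held between 2 CpG (the outermost Igf2 start) and 45 CpG (Grb10), with a median of 15.5 against 7 over all windows. The Phlda2 window held 26 CpG, the Ascl2 window 23, the printed Igf2 window 24 and the Peg3 window 13. The FPKM do not say from which start a transcript came.

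In KLF3-GFP-negative mESCs, Phlda2 stood far above the other members. Its 1054.81 FPKM exceeded 98.8% of the 13056 genes listed. Cdkn1c followed with 22.93 FPKM, Grb10 with 6.79 FPKM, Mest with 2.75 FPKM and Ascl2 with 2.73 FPKM. The remaining 5 were under 1 FPKM, with Igf2 at the lowest value. The maternally expressed genes thus held 4 of the 5 highest places. In GFP-overexpressing mESCs of the second experiment the order was led by Phlda2 (76.92 FPKM), Grb10 (23.33 FPKM), Mest (18.11 FPKM), Igf2 (10.94 FPKM), Peg10 (9.96 FPKM) and Cdkn1c (8.07 FPKM), with Peg3 at 4.78 FPKM and Dlk1, Ascl2 and Plagl1 under 1 FPKM. Without the spread between replicates, neighbours in these orders cannot be said to differ.

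**Figure D1:**
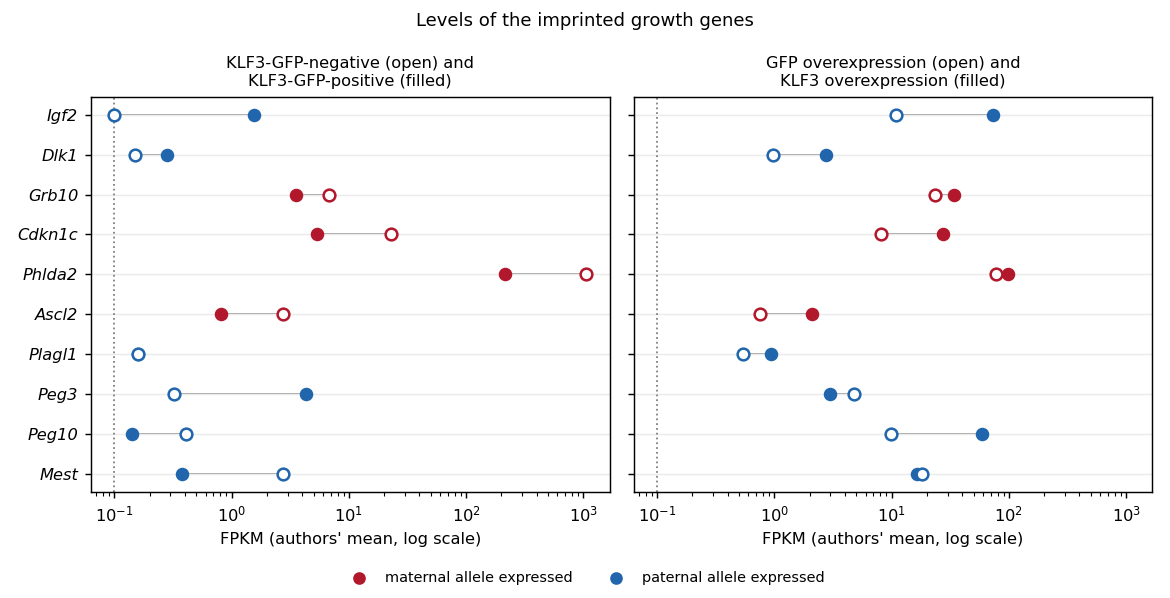
FPKM of each imprinted growth gene (rows) on a log axis, as the authors' mean of 2 replicates, in sorted cells (left) and overexpressing cells (right). Open circles are KLF3-GFP-negative or GFP-overexpressing cells, filled circles are KLF3-GFP-positive or KLF3-overexpressing cells, colour gives the parental copy known to be expressed, and the dotted line is the lowest value of the tables (0.1). All 4 maternally expressed genes lie lower in KLF3-GFP-positive cells and higher in KLF3-overexpressing cells than in their controls, except that Phlda2 turned lower in the latter (-0.30) once the trend with genomic span was removed. Of all genes past the minimum expression, 48.1% were lower in KLF3-GFP-positive cells and 40.5% higher in KLF3-overexpressing cells.

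In KLF3-GFP-positive cells, the maternally expressed Phlda2, Cdkn1c and Ascl2 and the paternally expressed Mest were called lower, and the paternally expressed Peg3 was called higher. Of the 10 members, 6 passed the minimum expression, and of these 1 was called higher and 4 were called lower. Among all 9212 genes that passed, 13.8% were called higher and 8.32% lower. Mest, Ascl2 and Peg3 passed the minimum through a single column, so a difference of theirs was built into passing. The median difference was -1.24 over the 6 members and -0.54 over all 10, beside 0.03 over all genes that passed. Quantile normalization moved this last median to -0.09. No member with a difference other than 0 changed sign under another scaling of this table.

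Phlda2 encodes a pleckstrin homology domain protein that restrains the growth of the placenta. Its level was 1054.81 FPKM in negative and 212.51 FPKM in positive cells, a difference of -2.31, which is 4.96-fold lower in plain FPKM. It still exceeded 95.4% of the listed genes in the positive cells. Cdkn1c encodes p57Kip2, an inhibitor of cyclin-dependent kinases. It had 22.93 FPKM in negative and 5.30 FPKM in positive cells, a difference of -1.93 or 4.33-fold in plain FPKM. Ascl2 encodes a basic helix-loop-helix transcription factor needed for the spongiotrophoblast of the placenta. It went from 2.73 to 0.81 FPKM, and with a difference of -1.04 it was just past the limit. Grb10 encodes an adaptor that dampens signalling from the insulin and IGF receptors. It had 6.79 FPKM in negative and 3.53 FPKM in positive cells, and its difference of -0.78 did not pass the limit. All 4 maternally expressed genes were therefore on the lower side, 3 of them past the limit. Among all genes that passed in sorted cells, 48.1% had a difference below 0.

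The paternally expressed genes did not share a direction in the sorted cells, and most were barely detected. Peg3, which encodes a large zinc finger protein, had 0.32 FPKM in negative and 4.31 FPKM in positive cells, a difference of 2.01 or 13.5-fold in plain FPKM. Mest, which encodes an enzyme-like protein of the endoplasmic reticulum, went the other way, from 2.75 to 0.38 FPKM, a difference of -1.44. Igf2, which encodes the fetal growth ligand insulin-like growth factor 2, was listed at 0.10 FPKM, the lowest value, in negative cells and at 1.54 FPKM in positive cells. Its difference of 1.21 was past the limit, but its mean over both columns was 0.82 FPKM and so under the minimum. Peg10, which derives from a retrotransposon and is needed for the placenta, was under 1 FPKM in both populations, with 0.41 and 0.14 FPKM. Dlk1, which encodes a membrane protein with EGF-like repeats, had 0.15 and 0.28 FPKM. Plagl1, which encodes a zinc finger transcription factor, had 0.16 FPKM in both. At such levels a difference rests on very little signal, and its precision is unknown.

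In KLF3-overexpressing cells, 8 of the 10 members had higher values than in GFP-overexpressing cells, although Phlda2 did not without the trend with genomic span, and 3 of them passed the limit. Of the 10 genes, 9 passed the minimum in the overexpression table, of which 3 were called higher and 0 lower. Among all 11179 genes that passed, 40.5% had a difference above 0, 6.60% were called higher and 10.1% lower. Ascl2 and Dlk1 passed the minimum through the KLF3 column alone. The median difference was 0.83 over the 9 members and 0.67 over all 10, whereas the median of all genes that passed was -0.18. Median-ratio scaling of the columns brought this median to 0.00 and turned the 738 higher and 1133 lower calls over all genes into 1167 and 688, so the differences below are to be read against a background of -0.18.

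Igf2 had the largest difference of the members. Its level was 10.94 FPKM with GFP and 73.51 FPKM with KLF3, a difference of 2.64 or 6.72-fold in plain FPKM. It ranked above 60.8% of the 14319 listed genes with GFP and above 90.4% with KLF3. Peg10 was similar, with 9.96 and 59.45 FPKM, a difference of 2.46 or 5.97-fold in plain FPKM. Cdkn1c was the third member past the limit, with 8.07 and 27.43 FPKM and a difference of 1.65, and the only one of the 3 that is maternally expressed. These genes include both a ligand that promotes growth and a cell cycle inhibitor.

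Dlk1 (0.98 and 2.77 FPKM, difference 0.93) and Ascl2 (0.75 and 2.11 FPKM, difference 0.83) were 2.83-fold and 2.81-fold higher in plain FPKM in KLF3-overexpressing cells, but stayed within the limit on the scale used. Without the trend of differences with genomic span, the difference of Ascl2 was 0.36. Grb10 had 23.33 and 33.72 FPKM, a difference of 0.51 that became 0.98 without the span trend. Phlda2 had 76.92 and 97.40 FPKM, a difference of 0.34 that turned to -0.30 without this trend. Plagl1 was under 1 FPKM in both columns, with 0.54 and 0.93 FPKM. Peg3 was lower, with 4.78 and 2.98 FPKM and a difference of -0.54. Mest had 18.11 and 16.61 FPKM, and its difference of -0.12 became 0.08 with median-ratio scaling, 0.04 with quantile normalization and 0.14 without the span trend. Its direction therefore depended on the scaling.

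Genomic span moved with the differences in the overexpression table, where the median difference went from 0.35 in the shortest of 5 equal groups of genes to -0.49 in the longest. Ascl2, Cdkn1c and Phlda2 belonged to the shortest group, in which 16.4% of the genes were called higher. Dlk1 and Peg10 belonged to the next group (7.11% called higher), Igf2, Peg3 and Mest to the middle group (4.03%), and Grb10, whose locus covers 108176 bases, to the longest (2.42%). Without the span trend, the differences of Igf2 (2.77), Peg10 (2.52) and Cdkn1c (1.20) all remained past the limit, and 3 members were again called higher. In sorted cells the medians of the 5 groups lay between -0.03 and 0.12. The shortest group there, with Ascl2, Cdkn1c and Phlda2, had 11.9% called lower, and the others between 6.95% and 8.31%. Without the span trend, the sorted difference of Ascl2 was -1.002, barely past the limit.

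**Figure D2:**
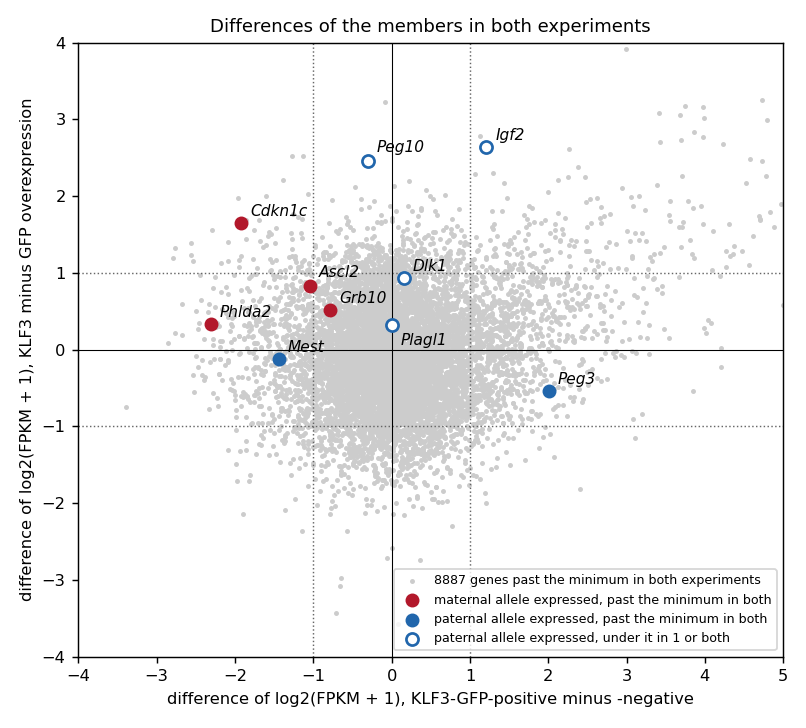
Difference of log2(FPKM + 1) in sorted cells (x axis) and in overexpressing cells (y axis) for the 10 imprinted growth genes (coloured by the parental copy known to be expressed) over the 8887 genes that passed the minimum in both experiments (grey), with dotted lines at the 2-fold limits. Cdkn1c lies at -1.93 and 1.65, Peg3 at 2.01 and -0.54, and open circles are members under the minimum in at least 1 experiment. A further 18 grey genes lie outside the axes.

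Side by side, the members that passed the minimum in both experiments mostly differed in opposite directions. These were Phlda2, Cdkn1c, Ascl2, Grb10, Peg3 and Mest. Of these 6 genes, 5 had differences of opposite sign, with Mest as the exception, and of all 8887 genes 49.2% did. Mest joined them under the 3 scalings that turned its sign, and Phlda2 left them without the span trend. Nothing is read from this count, which rests on 6 genes and moved with the scaling. Ascl2 passed the minimum only through its higher column in each experiment, and Peg3 and Mest only through theirs in sorted cells. Passing in this way built in the size of a difference but not its sign. The experiments share no control samples. Cdkn1c was the one member called in both, and it was called lower in KLF3-GFP-positive cells and higher in KLF3-overexpressing cells. Igf2 was higher in the KLF3 column of each experiment, with differences of 1.21 and 2.64, although it was under the minimum in sorted cells.

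Genes with a pattern most like that of a member were found as those with the smallest Euclidean distance over both differences among the other 8886 genes. These are likenesses over 2 values only. The nearest gene was Myc for Cdkn1c (distance 0.08, with differences of -1.85 and 1.69), Ifitm3 for Phlda2 (0.03), Fkbp10 for Ascl2 (0.03), March5 for Grb10 (0.0042), Tekt2 for Mest (0.04) and Slc2a3 for Peg3 (0.07). Among 17 other imprinted genes, the nearest was Ddc for Cdkn1c (0.66), Ndn for Phlda2 (1.30) and Mest (0.33), Commd1 for Ascl2 (0.55) and Grb10 (0.30), and H13 for Peg3 (0.31).

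The distal chromosome 7 domain was then read together with its surroundings, up to 500 kb beyond Igf2 and Phlda2, an interval chosen after the values were seen. In sorted cells, the 3 members that passed the minimum there (Ascl2, Cdkn1c and Phlda2) were all called lower. Ascl2 passed through a single column, so a difference was built into its passing. Of 8 other genes that passed, 1 was called higher and 2 lower, with a median difference of 0.14. Over the whole table, 13.8% of the genes that passed were called higher and 8.32% lower. The gene called higher was Ctsd, which encodes the protease cathepsin D (23.53 and 120.78 FPKM), on the far side of Igf2. The genes called lower were Cars, which encodes a cysteinyl-tRNA synthetase (26.36 and 9.41 FPKM), and Tnfrsf22 (3.15 and 0.60 FPKM), both beyond Phlda2. Nap1l4, which lies between Phlda2 and Cars, had 22.68 and 24.12 FPKM, so lower values were not continuous along the chromosome. On KLF3 overexpression, 6.60% of all genes that passed were called higher and 10.1% lower. In the interval, 2 of the 4 members and 4 of 14 other genes were called higher, and 1 other gene, Dhcr7, was called lower. Of the 4 higher genes, Tnni2, Lsp1 and Tnnt3 lie beyond Igf2 and started from low values between 0.17 and 1.38 FPKM, and Tssc4 lies between Ascl2 and Cdkn1c. Slc22a18, another imprinted gene, lies between Cdkn1c and Phlda2 and had lower values in both experiments. It had 1.75 and 0.23 FPKM in sorted cells (-1.16, under the minimum), and 3.73 and 2.31 FPKM on overexpression (-0.52, within the limit).

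**Figure D3:**
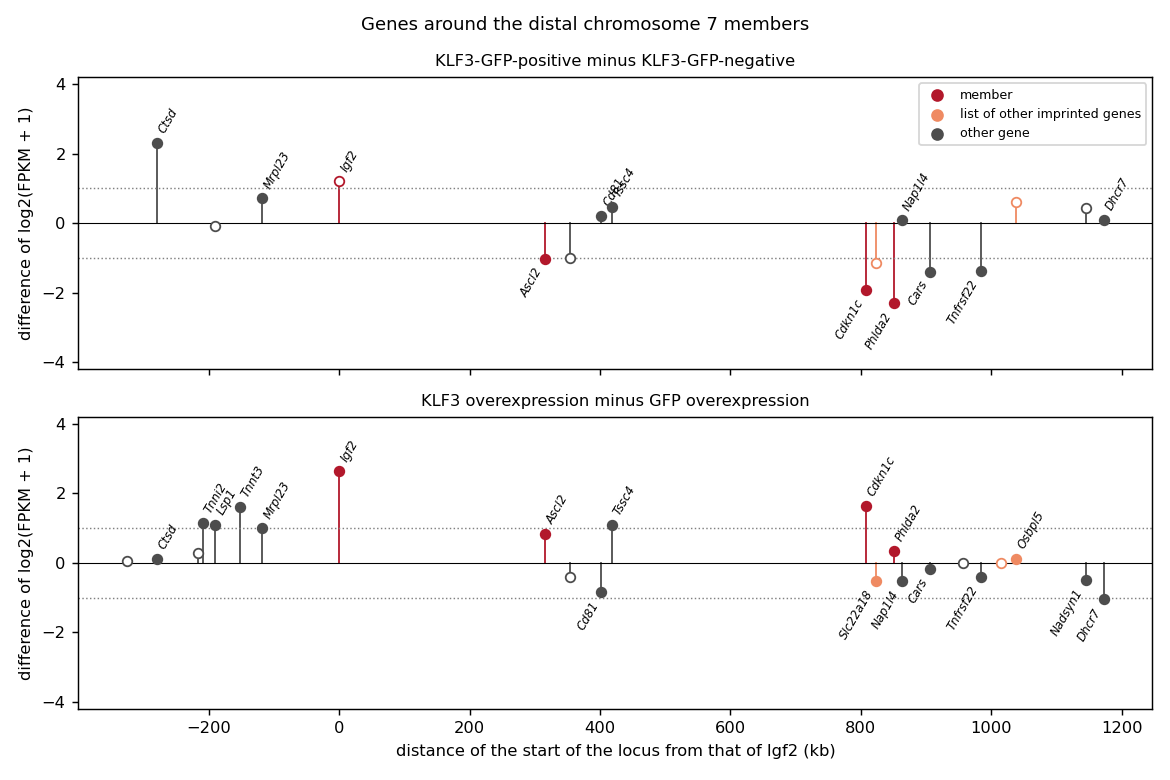
Difference of log2(FPKM + 1) for each listed gene around Igf2, Ascl2, Cdkn1c and Phlda2, by the distance of its locus from that of Igf2 in kb, in sorted cells (top) and overexpressing cells (bottom). Filled points passed the minimum of 1 FPKM, open points did not and are named only for members, and dotted lines mark the 2-fold limits. Ascl2, Cdkn1c and Phlda2 point down in the upper panel and up in the lower panel, with differences of -1.04, -1.93 and -2.31 above and 0.83, 1.65 and 0.34 below, the last of which turned to -0.30 without the trend with genomic span. The imprinted Slc22a18, between Cdkn1c and Phlda2, points down in both panels (-1.16, under the minimum, and -0.52).

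Beyond the members, the list of 48 other imprinted genes held both directions in either experiment. In sorted cells 28 were listed and 19 passed the minimum, of which 4 were called higher and 3 lower, with a median difference of 0.24. Igf2r, the receptor that clears IGF2 and carries enzymes to the lysosome, had the largest difference (4.38 and 45.28 FPKM, difference 3.10), followed by H13 (15.99 and 58.72 FPKM) and Sfmbt2 (0.28 and 3.30 FPKM). On overexpression 31 were listed and 23 passed, with 3 called higher, 4 lower and a median of -0.34. The largest differences were those of Ddc (9.28 and 28.53 FPKM, difference 1.52), Copg2 (23.76 and 8.56 FPKM, difference -1.37) and Ube3a (10.89 and 29.57 FPKM, difference 1.36). Igf2r was lower there, with 7.38 and 2.79 FPKM and a difference of -1.14. The counts of this list and of those below stand beside the shares over all genes that passed. These were 13.8% called higher and 8.32% lower in sorted cells, and 6.60% and 10.1% on overexpression.

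In the IGF and insulin axis, ligands, receptors and binding proteins did not share a direction. In sorted cells, 3 of 11 genes that passed were called higher and 1 lower, with a median of 0.29. Igf1, the ligand related to Igf2, was listed at the lowest value in negative cells and at 18.53 FPKM in positive cells, beside the 1.54 FPKM of Igf2. Igfbp2, a secreted protein that binds both ligands, had 93.51 and 19.77 FPKM, a difference of -2.19. The signalling receptor Igf1r had 2.11 and 0.99 FPKM, a difference of -0.64 that did not pass the limit. On overexpression, 1 of 10 genes was called higher (Igfbp6, 0.53 and 2.97 FPKM) and 3 lower, with a median of -0.24. Those lower were Igf2r and a pair of genes for RNA-binding proteins named for binding Igf2 mRNA, Igf2bp3 (14.30 and 5.70 FPKM) and Igf2bp2 (30.42 and 13.62 FPKM). Igf2bp1 had 20.45 and 40.22 FPKM, a difference of 0.94 within the limit.

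The list of genes that set or protect imprints also held both directions. In sorted cells, 2 of 16 genes that passed were called higher and 5 lower, with a median of -0.56. Dppa3, which protects maternal methylation in the zygote, had 23.39 and 5.53 FPKM, and Zfp57 had 51.61 and 20.36 FPKM, a difference of -1.30. The methyltransferase gene Dnmt3b had 6.15 and 20.42 FPKM, and its cofactor gene Dnmt3l had 39.68 and 136.79 FPKM. On overexpression, 3 of 17 were called higher and 6 lower, with a median of -0.79. Zfp445, a partner of Zfp57 in imprint protection, had 5.62 FPKM in GFP-overexpressing cells and stood at the lowest value in KLF3-overexpressing cells. Atrx had 23.81 and 6.68 FPKM and the maintenance methyltransferase Dnmt1 51.84 and 16.94 FPKM, whereas Dnmt3l had 41.11 and 129.55 FPKM. Zfp57 had 200.50 and 303.79 FPKM there, a difference of 0.60 that did not pass the limit.

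Non-imprinted relatives of the members were compared to see whether a member differed like its family. Phlda1, a relative of Phlda2, was higher in both experiments, with 3.20 and 17.27 FPKM in sorted cells and 3.24 and 18.56 FPKM on overexpression, whereas Phlda2 was lower in sorted cells. Cdkn1a, which encodes p21, had 68.61 and 156.70 FPKM in sorted cells, a difference of 1.18 against the -1.93 of its relative Cdkn1c. On overexpression Cdkn1a had 18.04 and 25.54 FPKM and did not pass the limit. Plag1, a relative of Plagl1, had 2.22 and 0.29 FPKM in sorted cells. Over this list, 3 of 8 genes were called higher and 2 lower in sorted cells, and 2 of 6 were called higher on overexpression, the second being Phlda3 (26.35 and 91.19 FPKM).

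Markers of other cell types differed between the same columns. Of the primitive endoderm markers, 18 of 20 that passed were called higher in KLF3-GFP-positive cells and 1, Apoa1, lower, and their summed level was 494.85 FPKM in negative and 4095.74 FPKM in positive cells. On overexpression 20 of 21 were called higher, with summed levels of 1234.34 and 2533.87 FPKM. Much of these sums was Apoe, with 420.11 and 1995.36 FPKM in sorted cells. It had 977.32 and 1503.49 FPKM on overexpression, where it was the marker not called. Dab2, Col4a1 and Amn had the largest differences in sorted cells (7.04, 5.81 and 5.78), and Amn, Apoa1 and Col4a1 on overexpression (2.55, 2.53 and 2.48). Of the trophoblast markers, 4 of 7 were called higher in sorted cells, with sums of 39.06 and 405.47 FPKM, and 5 of 11 on overexpression, with sums of 116.88 and 571.00 FPKM. Krt8 and Krt18 made up most of these sums. Plac1, a gene of the placenta, was called higher in both experiments, with 0.10 and 5.11 FPKM in sorted cells and 0.19 and 4.65 FPKM on overexpression. Hand1 (0.83 and 4.16 FPKM) and Ly6a (0.41 and 3.61 FPKM) were also called higher on overexpression. Tfap2c had lower values in both experiments (2.40 and 0.77 FPKM, 26.24 and 13.10 FPKM), within the limit. Tead4 was called higher in sorted cells (1.92 and 5.08 FPKM) but had 10.71 and 6.80 FPKM on overexpression. Eomes and Esx1 hardly differed there (0.13 and 0.01). Of the listed trophoblast markers, 9 had differences above 0 and 4 below in sorted cells, and 12 and 3 on overexpression. Cdx2, a defining trophoblast factor, stayed at or under 0.60 FPKM in all columns. Of the fibroblast and feeder markers, 2 of 2 were called lower in sorted cells (Tagln and Vim, sums of 20.81 and 7.98 FPKM), and 1 of 8 was called higher on overexpression (Tagln, sums of 81.57 and 148.17 FPKM). Acta2 had 7.02 and 14.93 FPKM there, a difference of 0.99, and S100a4 had 1.06 and 2.98 FPKM, a difference of 0.95, both just within the limit. Mmp2 went the other way there, with 7.27 and 3.78 FPKM and a difference of -0.79. Of the listed fibroblast and feeder markers, 2 had differences above 0 and 6 below in sorted cells, and 11 and 2 on overexpression. The collagen gene Col1a2 stayed at or under 0.40 FPKM throughout. The part of these cell type markers in the differences of the imprinted genes was not tested.

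**Figure D4:**
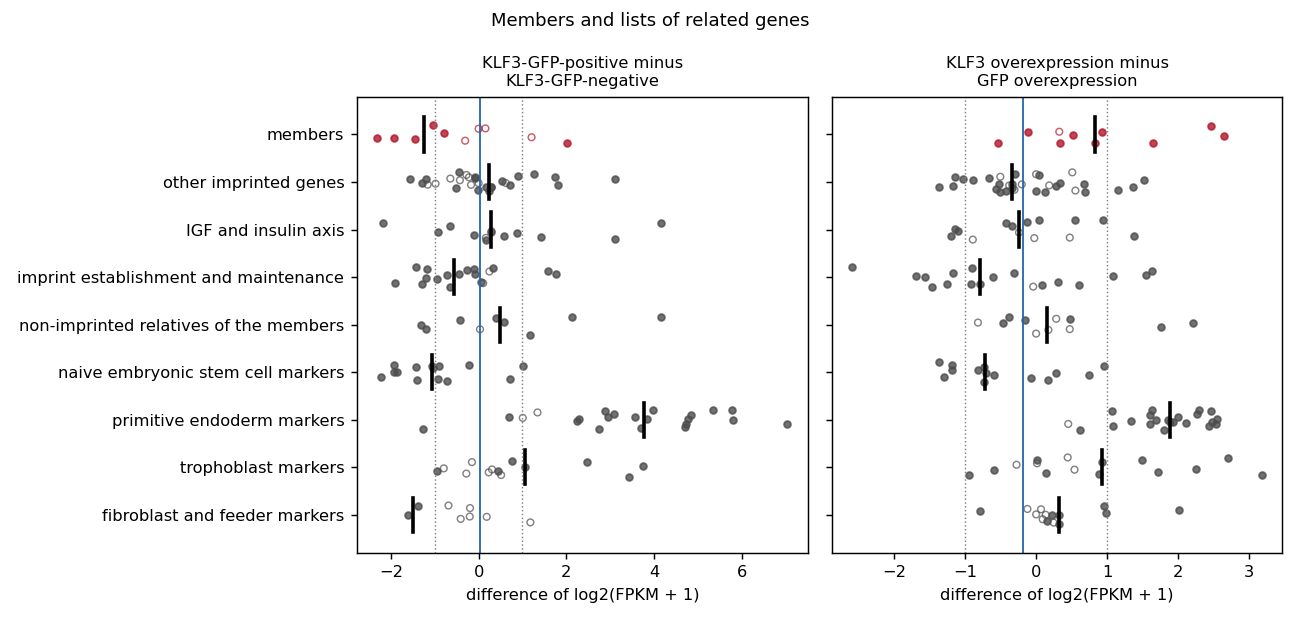
Difference of log2(FPKM + 1) for every listed gene of the members (red) and of 8 lists (grey) in sorted cells (left) and overexpressing cells (right), with filled points for genes that passed the minimum, open points for the others, and black bars at the medians of the filled points. Blue lines mark the medians of all genes that passed (0.03 and -0.18), dotted lines the 2-fold limits, and the vertical scatter within a row is arbitrary. The members' median lies at -1.24 on the left and 0.83 on the right.

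The cells were checked for markers of mESCs, which say nothing of reporter or transgene. Of 14 naive mESC markers, all were listed in both tables, 8 were called lower and 1 higher in KLF3-GFP-positive cells, and 4 were called lower on overexpression. Tdgf1, Fgf4 and Sox2 had the largest differences in sorted cells (-2.22, -1.92 and -1.92), and Klf5, Nanog and Esrrb on overexpression (-1.37, -1.30 and -1.18). On overexpression 10 of the 14 had differences below 0 and 4 above. Those 4 were Utf1 (0.95), Dppa5a (0.74), Klf2 (0.28) and Pou5f1 (0.16), all within the limit. Klf3 had 107.04 and 122.29 FPKM in sorted cells, where both populations carry part of Klf3 in the reporter, whose reads may count towards it. On overexpression Klf3 had 58.66 and 47.76 FPKM, but the codon-optimized transgene need not align to it. Klf3 therefore does not check that label. The columns of the overexpression experiment also differed on chromosome Y, where Uty had 3.56 FPKM in GFP-overexpressing cells and stood at the lowest value in KLF3-overexpressing cells. Ddx3y had 3.34 FPKM and stood at the lowest value in the same columns, and Eif2s3y had 30.87 and 1.67 FPKM, a difference of -3.58. The differences of Igf2, Peg10, Cdkn1c and the other members on overexpression lie between these same columns, so a difference between clones and a difference made by KLF3 cannot be told apart for them.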

How the data were processed

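The series was measured by RNA-seq as 2 experiments (Smart-seq2 of sorted cells, poly(A) RNA of overexpressing cells). The authors aligned reads to mm10 with STAR and the GENCODE annotation and made FPKM with Cufflinks 2.2.1. The submitters' processing notes give STAR 2.6.0, and the study's methods name another version. The deposited FPKM tables hold 1 column per condition, each the authors' mean of 2 replicates, for protein-coding genes. Depth per sample is unknown.

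Samples were grouped by their genotype labels. Members were matched by symbol, repeated identifiers were represented by their locus with the highest mean, and loci were written with 1-based starts. Log2 differences used a pseudocount of 1 and a minimum mean of 1 FPKM. The members and the 8 lists were chosen with earlier results of these data known. Named genes were all members, the 3 genes per list and experiment with the largest absolute difference among those past the minimum, the nearest patterns, and markers needed beside a result. Other named genes were chosen after their values were seen. Other pseudocounts, minima and scalings are compared in the closing section. Scripts (Python 3.11.15, pandas 2.3.3, statsmodels 0.14.6) were tested on simulated data. Promoter windows are RefSeq's (GRCm38.p6).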

Additional observations from a re-analysis of the deposited data

How the results depend on the processing

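No value for single replicates was at hand, so leaving out replicates could not be run. No paired analysis was possible because each column is a mean of 2 replicates. In sorted cells, the members called higher (1) became 2 without a minimum expression, where Igf2 entered, and 0 at a minimum mean of 5 FPKM, where Peg3 left. Those called lower (4) became 2 at 5 FPKM because Mest and Ascl2 left. The median difference of the sorted members (-1.24) was -1.86 with a pseudocount of 0.1, -1.93 with a floor of 0.1, -0.54 without a minimum, -1.93 at 5 FPKM, -1.26 with median-ratio scaling, -1.32 with quantile normalization and -1.23 without the span trend. On overexpression, the members called higher (3) became 5 with a pseudocount of 0.1, with a floor of 0.1 and with quantile normalization, each time by Ascl2 and Dlk1, and 4 with median-ratio scaling, by Dlk1. Their median (0.83) was 1.38, 1.49 and 1.03 there, 0.67 without a minimum, 1.08 at 5 FPKM, 0.95 with median-ratio scaling and 0.90 without the span trend. No called member changed sign under any of the 7 alternatives. Over all genes, median-ratio scaling turned 738 higher and 1133 lower calls of the overexpression table into 1167 and 688, quantile normalization into 804 and 701 and removal of the span trend into 794 and 588, while the lower calls became 1819 with a pseudocount of 0.1 and 1912 with a floor. In sorted cells 1267 and 766 became 840 and 417 at 5 FPKM. Low values, such as those of Plagl1, Dlk1 and Peg10 in sorted cells, are limited by a depth that is unknown.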

Other observations

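Outside distal chromosome 7, genes near the members gave the following values, in a comparison chosen after the values were seen. Ddc, which encodes the decarboxylase that makes dopamine and serotonin, lies 32.4 kb from Grb10. It was lower in KLF3-GFP-positive cells (16.77 and 6.32 FPKM, difference -1.28) and higher in KLF3-overexpressing cells (9.28 and 28.53 FPKM, difference 1.52), the same directions as Grb10. Fignl1, at 122 kb from Grb10, was on the lower side in both experiments, with 12.50 and 7.12 FPKM in sorted cells (difference -0.73) and 39.25 and 27.19 FPKM on overexpression (difference -0.51). Cobl, which encodes an actin nucleator and lies 198 kb from Grb10, had 10.76 and 2.63 FPKM in sorted cells, a difference of -1.70, and 25.83 and 40.79 FPKM on overexpression, a difference of 0.64.

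Sgce, which starts next to Peg10 and shares its paternal expression, had 2.54 and 4.70 FPKM on overexpression. Its difference of 0.69 had the direction of the 2.46 of Peg10 but did not pass the limit. Of the other neighbours of Peg10 that passed there, Casd1 had 2.29 and 1.04 FPKM (difference -0.69). The imprinted Ppp1r9a had 3.59 and 3.73 FPKM (difference 0.04). Copg2, which overlaps Mest on the other strand, had 10.30 and 15.40 FPKM in sorted cells, where Mest was called lower, and was itself called lower on overexpression. Usp29, which starts next to Peg3, was listed in the overexpression table only, at 0.56 FPKM in GFP-overexpressing cells and at the lowest value in KLF3-overexpressing cells. Neighbours within 500 kb of a member that are on neither imprinted list were also counted. In sorted cells, 2 of 23 genes were called higher and 4 lower, beside 13.8% and 8.32% of all genes that passed. On overexpression, 5 of 36 were called higher and 4 lower, beside 6.60% and 10.1%.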
